A study of Mus musculus with 62 samples.

Results

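The cortical layer identity factors described here are 9 mouse genes that mark or specify neurons of particular layers of the cerebral cortex: Tbr1, Bcl11b, Fezf2, Foxp2, Cux1, Cux2, Pou3f2, Rorb and Reln. They were taken by symbol from the 27179 genes of the deposited count tables, and all 9 were found, each under its Entrez identifier (21375, 58208, 54713, 114142, 13047, 13048, 18992, 225998 and 19699, in the order given). Bulk polyA RNA-seq had been performed on forebrain of E17.5 embryos (8 euploid and 7 Ts65Dn, of unlabelled sex) and on hippocampus of adults aged 6 weeks (males: 8 euploid, 7 Ts65Dn and 8 Ts65Dn;Brwd1+/-; females: 8 of each genotype), all on a DBA/2J x B6EiC3Sn/J background. Ts65Dn mice model Down syndrome and carry an extra segment holding distal chromosome 16 and proximal chromosome 17, and with it an additional copy of Brwd1 and of many other genes. The Ts65Dn;Brwd1+/- animals carry the same segment and 1 mutant Brwd1 allele in every cell. The study made them to restore the copy number of Brwd1. None of the 9 genes lies on chromosome 16 or 17.

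Cortical neurons are born in order, those of deep layers before those of upper layers, and each of these genes is known from that sequence. Fezf2 and Bcl11b (also called Ctip2) specify subcortically projecting neurons of layer 5, Tbr1 specifies corticothalamic neurons of layer 6, and Foxp2 marks layer 6 and, outside the cortex, neurons of the thalamus and striatum. Cux1, Cux2 and Pou3f2 (Brn2) belong to upper-layer neurons and their progenitors, Rorb is a nuclear receptor of layer 4, and Reln encodes the secreted glycoprotein of Cajal-Retzius cells that guides migrating neurons. In the hippocampus Bcl11b is also expressed in CA1 and dentate granule neurons, and Reln in interneurons. In whole tissue, fewer cells of a type cannot be told apart from less RNA per cell.

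In the E17.5 forebrain no layer factor passed the test between the genotypes, whereas the deep-layer factors varied together between embryos of the same genotype: embryos low in Tbr1 tended to be low in Fezf2 and Bcl11b and high in Foxp2. The widest ranges were those of Tbr1 and Fezf2 among Ts65Dn embryos, whose lowest value was that of embryo TS7 for both genes. The promoters of Tbr1, Bcl11b and Fezf2, chosen after these values were seen, are therefore shown, as RefSeq windows from 250 bases before to 50 bases after an annotated start (build GRCm38.p6, 5′ to 3′ on the gene's strand), with CpG dinucleotides in capitals.
Tbr1: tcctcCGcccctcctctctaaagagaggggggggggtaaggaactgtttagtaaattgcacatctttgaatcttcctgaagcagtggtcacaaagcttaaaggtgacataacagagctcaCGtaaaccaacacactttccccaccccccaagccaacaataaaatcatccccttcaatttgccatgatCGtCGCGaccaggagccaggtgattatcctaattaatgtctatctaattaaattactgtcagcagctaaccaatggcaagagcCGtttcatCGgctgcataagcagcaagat
Bcl11b: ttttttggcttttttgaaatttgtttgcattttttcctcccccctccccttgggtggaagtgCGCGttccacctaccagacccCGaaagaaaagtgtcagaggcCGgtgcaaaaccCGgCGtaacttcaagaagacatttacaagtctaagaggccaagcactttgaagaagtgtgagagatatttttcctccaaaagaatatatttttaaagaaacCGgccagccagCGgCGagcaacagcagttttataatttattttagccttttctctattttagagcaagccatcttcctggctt
Fezf2: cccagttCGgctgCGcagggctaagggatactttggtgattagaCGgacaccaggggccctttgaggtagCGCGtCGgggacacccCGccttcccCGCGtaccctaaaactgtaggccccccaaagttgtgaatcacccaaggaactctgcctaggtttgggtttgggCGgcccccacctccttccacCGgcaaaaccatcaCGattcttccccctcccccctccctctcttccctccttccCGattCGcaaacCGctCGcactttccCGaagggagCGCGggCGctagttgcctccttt
The windows lie at chr2:61804203-61804502 (plus strand), chr12:108003365-108003664 (minus strand) and chr14:12345816-12346115 (minus strand). Each lies inside its RefSeq gene (chr2:61802863-61814114, chr12:107910403-108004145 and chr14:12338992-12346803), at a start downstream of the gene's outermost 5′ end, which is not shown. The windows hold 7, 9 and 20 CpGs, against a median of 7 over all 32851 RefSeq windows of this length, so that the 3 windows do not share a high CpG count. Windows were present for 8 of the 9 genes, 10 in all because Cux2 and Rorb have 2 starts each. Motifs of the members' own families were searched on both strands. The T-box site AGGTGTGA, present in 1.28% of all windows, and the octamer ATGCAAAT of POU factors, present in 1.74%, were found in none of the 10. The Cut core ATCGAT, present in 0.925% of windows, was found in 1, the downstream start of Cux2, where its last base is also the first of a TATAAA match. The forkhead site TGTTTAC (3.65% of windows) was found in 1, that of Cux1, and the nuclear receptor site AGGTCA (16.3%) was found in none.

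Library depth was 14863136 to 62618142 counted reads per library at E17.5 and 33584456 to 137059172 in adults, which gave Rorb, the member with the fewest reads in the forebrain, 225 or more reads in every embryo. Genes on the extra segment stood at a median of 0.562 to 0.598 on the log2 scale over the euploid mean in all 7 Ts65Dn embryos, and Brwd1 was higher there by 0.56 on the log2 scale (adjusted p = 1.19e-05, edgeR). In the adults, 4 libraries labelled as trisomic had these genes at the euploid level (M_TS_B145, M_CR_B138, M_CR_T35 and F_CR_B136, medians of 0.0134, 0.0378, 0.0322 and 0.000152), and the sex-linked genes Xist and Ddx3y went against the labelled sex in M_TS_B88 and F_WT_B85. Adult differences with an unadjusted p under 0.05 among the members are given with these libraries and without them. Brwd1 stood at 7.05 to 7.26 log2 CPM in male Ts65Dn;Brwd1+/- libraries with triplicated genes at the trisomic level. The male euploid range was 6.60 to 6.99, and male Ts65Dn libraries at the trisomic level had 7.20 to 7.47. In females these ranges were 6.79 to 7.28, 6.26 to 7.12 and 7.17 to 7.55. The study reported, by qPCR of E17.5 forebrain, that the cross rescued the raised Brwd1 of males. Whether the counts include RNA of the mutant allele was not tested. By Ddx3y, 2 of the 8 euploid and 3 of the 7 Ts65Dn embryos had male levels. The labels do not say whether embryos of a genotype came from separate litters, and p-values measure the spread between these samples only.

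Per kilobase of exon, the layer factors of the euploid forebrain spanned from Bcl11b at 34.0 ± 4.61 RPKM (SD, n = 8) to Rorb at 1.90 RPKM. Tbr1 followed Bcl11b at 26.6 ± 5.51 RPKM and did not differ from Pou3f2, at 25.7 RPKM, beyond that spread. Fezf2 stood at 19 RPKM. Reln and Cux2 were level with each other at 9.96 and 9.94 RPKM, and Cux1 and Foxp2 at 5.84 and 5.39 RPKM. Lengths were unions of annotated exons, which lowers the RPKM of genes with many alternative exons. Cux1 is such a gene, since it also encodes the Golgi protein CASP, and its count does not separate the products.

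The deep-layer factors were compared first, as levels in whole forebrain, which do not give the number of layer neurons. Tbr1 in CPM (counts of a gene scaled to the library's total) was 92.4 at the lowest, 158 at the median and 179 at the highest in the 8 euploid embryos, and 23.3, 95.8 and 203 in the 7 Ts65Dn embryos. The trisomic range thus enclosed the euploid range on both sides, with 3 trisomic embryos below every euploid embryo and 1 above every euploid embryo. The SD of log2 CPM was 1.07 among Ts65Dn and 0.33 among euploid embryos. The log2 fold change was -0.35 ± 0.34 (SE, adjusted p = 0.667, edgeR quasi-likelihood test with Benjamini-Hochberg adjustment), which spans a 95% interval of 0.473- to 1.31-fold. Without embryo TS7, at 23.3 CPM, the log2 fold change was -0.15 (adjusted p = 0.861).

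Fezf2, the zinc-finger gene upstream of Bcl11b in layer 5 neurons, was 39.2, 50 and 101 CPM (lowest, median, highest) in euploid embryos and 10.7, 43.4 and 62.0 CPM in Ts65Dn embryos. The lowest value was again that of TS7, and the highest that of the euploid embryo EU4. The log2 fold change was -0.43 ± 0.31 (adjusted p = 0.567), moving to -0.25 without TS7 and to -0.27 without EU4. Bcl11b was 200, 279 and 325 CPM in euploid and 140, 225 and 320 CPM in Ts65Dn embryos, and 3 trisomic embryos (TS2, TS5 and TS7) fell below every euploid embryo. Its log2 fold change was -0.29 ± 0.16 (adjusted p = 0.475), and -0.19 without TS7. Foxp2 was the member whose estimate lay above 0. It was 66.2, 82.8 and 116 CPM in euploid and 64.1, 88.2 and 152 CPM in Ts65Dn embryos, with a log2 fold change of 0.19 ± 0.18 (adjusted p = 0.642) that moved to 0.07 without TS7.

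**Figure D1:**
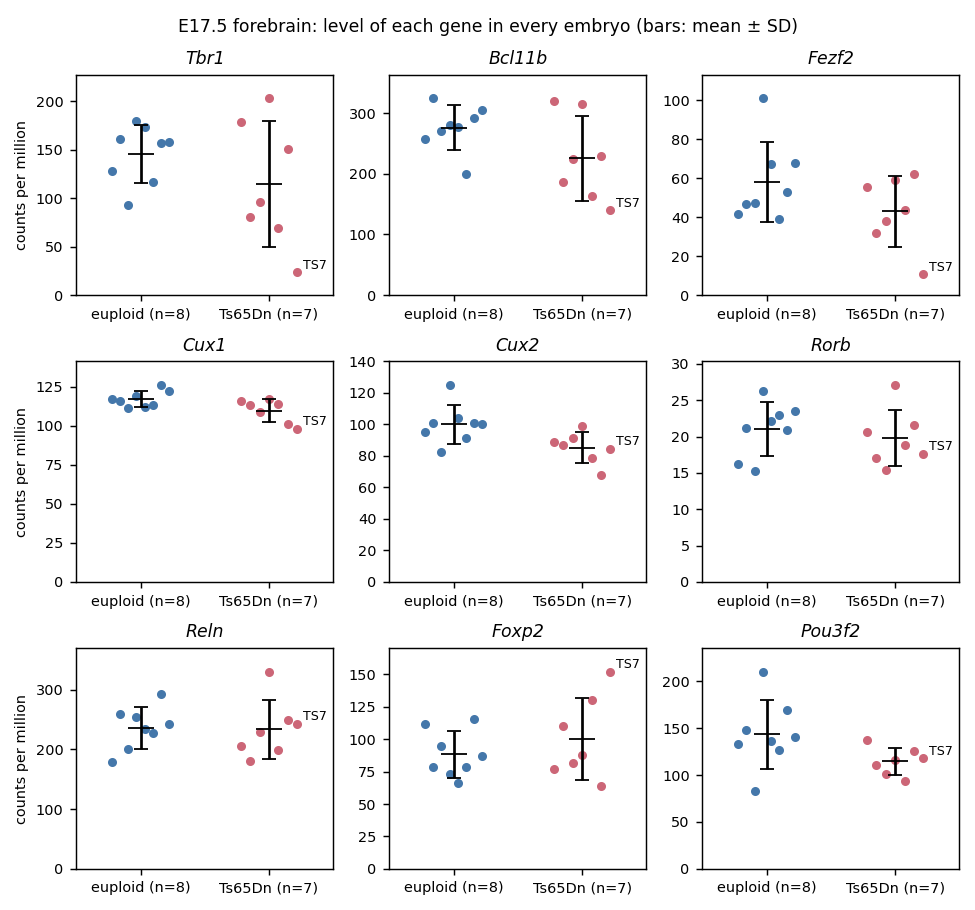
Level of each layer factor in every E17.5 forebrain library, in CPM, for 8 euploid (blue) and 7 Ts65Dn (red) embryos, with bars for the mean and SD. TS7 is the lowest embryo for Tbr1, Bcl11b, Fezf2 and Cux1 and the highest for Foxp2, and no gene separates the genotypes.

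Of the upper-layer factors, Cux1 and Cux2 varied less between embryos than the deep-layer factors, and their intervals were narrower. On the log2 CPM scale, Cux2 was 6.36, 6.66 and 6.97 in euploid and 6.08, 6.44 and 6.63 in Ts65Dn embryos, so that all 7 trisomic embryos were below the euploid median, and 2 of them were below every euploid embryo. The log2 fold change was -0.23 ± 0.09, with an adjusted p of 0.283 in edgeR, which misses the threshold of 0.1. Pou3f2 was likewise below the euploid median in 7 of 7 trisomic embryos, at 6.55, 6.85 and 7.10 log2 CPM against 6.37, 7.11 and 7.71 log2 CPM. None of these fell below the lowest euploid embryo, EU3, and the log2 fold change was -0.32 ± 0.14 (adjusted p = 0.383). Leaving out EU3 brought the adjusted p of Pou3f2 to 0.0921, at a log2 fold change of -0.40, and leaving out EU4, the highest embryo, brought it to 0.589, at -0.22. Cux1 had the tightest levels of all, at 111 to 126 CPM in euploid and 97.8 to 117 CPM in Ts65Dn embryos, and its fold change of 0.939 had a 95% interval from 0.872 to 1.01.

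Rorb and Reln, of layer 4 and the marginal zone, had estimates closest to 0 together with Cux1. Rorb was 15.2, 21.6 and 26.3 CPM in euploid and 15.4, 18.9 and 27.1 CPM in Ts65Dn embryos, a log2 fold change of -0.09 ± 0.13 (adjusted p = 0.776). Reln was 179, 238 and 293 CPM in euploid and 180, 230 and 330 CPM in Ts65Dn embryos, and its fold change of 0.990 had a 95% interval from 0.831 to 1.18. For both genes the groups overlapped over nearly their whole range.

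Of the 16395 genes tested at E17.5, 221 passed an adjusted p of 0.1 (1.35% called), and 0 of the 9 layer factors did in edgeR or in DESeq2. At an unadjusted p of 0.05 the count was 2 of 9, Cux2 and Pou3f2, beside 12.1% of all genes tested. Estimates lay below 0 for 8 of the 9 genes with a median of -0.23, while 53.7% of all genes were below 0 with a median of -0.014. The study normalised counts with RUVr and names no number of factors, so its own setting could not be repeated. When 3 factors of unwanted variation, estimated from residuals as an RUVr-type step, were added in DESeq2, the count rose to 5 of 9: Tbr1 at -0.53, Fezf2 at -0.48, Bcl11b at -0.33, Pou3f2 at -0.27 and Cux2 at -0.21, with adjusted p of 0.0621, 0.0332, 0.0106, 0.0585 and 0.0370. That setting, with the most factors tried, called 3882 genes in all. In edgeR, 1, 2 and 3 such factors gave 0, 2 and 3 members, among 1374, 2474 and 3339 genes called of 16395 tested. The embryos' titles carry 1 of 2 numbers, whose meaning the labels do not give: 1 is shared by 4 euploid and 3 Ts65Dn embryos, the other by 4 and 4. Within these sets Cux2 was -0.18 and -0.25, Pou3f2 -0.30 and -0.33, Tbr1 -0.24 and -0.42, and Foxp2 0.00 and 0.33, in that order, and 0 members passed in either set.

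Differences between embryos were shared among the deep-layer genes, though not among them alone. In deviations from the genotype means over the 15 embryos, Tbr1 varied with Fezf2 (Pearson r = 0.89, permutation p = 0.00024, adjusted over the 36 pairs 0.0045; Spearman rho = 0.79, permutation p = 0.00067, adjusted 0.0236) and with Bcl11b (r = 0.86, permutation p = 0.00025, adjusted 0.0045; rho = 0.83, permutation p = 0.00131, adjusted 0.0236). Without the 2 embryos farthest from the median of Tbr1, TS4 and TS7, r was 0.70 and 0.76. Within the title numbers r was 0.89 and 0.86. In the euploid embryos alone it was 0.67 and 0.52, and in the Ts65Dn embryos alone 0.95 and 0.92. Foxp2 went the other way, with r = -0.73 to Tbr1 (permutation p = 0.00665, adjusted 0.0532; rho = -0.70, permutation p = 0.0125, adjusted 0.0721), and r = -0.68 without the same 2 embryos. Without TS7 alone it was -0.59, in the euploid embryos alone -0.38 and in the Ts65Dn embryos alone -0.85. By rank, Tbr1 also varied with Rorb (rho = 0.68, permutation p adjusted 0.0695) and Pou3f2 (rho = 0.62, adjusted 0.0721). By Pearson r these 2 pairs stood at 0.57 and 0.38 (permutation p adjusted 0.111 and 0.143). In the euploid embryos alone r was 0.75 and 0.86, and in the Ts65Dn embryos alone 0.61 and 0.34. Rorb varied with Reln (r = 0.69, permutation p = 0.00742, adjusted 0.0532). Cux2 did not follow Tbr1 over all embryos (r = 0.29, permutation p = 0.336; rho = 0.54, permutation p = 0.0533) although r was 0.89 among the 8 euploid embryos and 0.13 among the 7 trisomic ones; that difference was not tested.

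**Figure D2:**
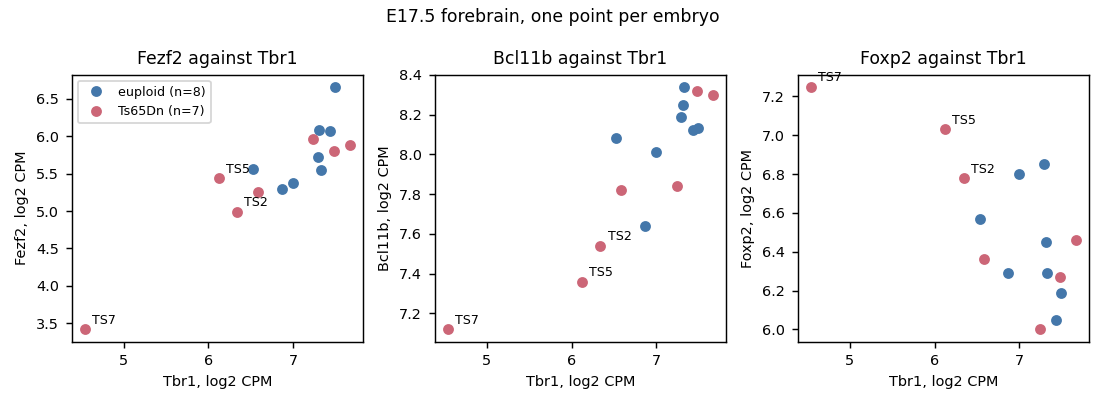
Fezf2, Bcl11b and Foxp2 against Tbr1, all in log2 CPM, with 1 point per E17.5 embryo (8 euploid in blue, 7 Ts65Dn in red). Fezf2 and Bcl11b rise with Tbr1 and Foxp2 falls, and TS7, TS5 and TS2 lie at the low end of Tbr1.

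The genes most like each member over the 15 embryos, by Pearson r of the same deviations, were Efnb2, Neurod2 and Mpped1 for Tbr1 (0.985, 0.978 and 0.971) and Emx1, Lmo7 and Bub1b for Fezf2 (0.982, 0.954 and 0.954). Bcl11b was nearest to Chn2, Ptk2b and C230057M02Rik (0.920, 0.915 and 0.914), and Foxp2 to Barhl2, Cachd1 and Lef1 (0.965, 0.949 and 0.940). Neurod2 and Emx1 are genes of the cortical excitatory lineage, while Barhl2 and Lef1 are expressed in the diencephalon. The upper-layer factors were nearest to Lrrc8a, Smarcc1 and Gdf11 (Cux1, 0.917, 0.869 and 0.832), Cttnbp2nl, Otud5 and Uck2 (Cux2, 0.910, 0.908 and 0.898) and Mrgbp, Susd6 and Narf (Pou3f2, 0.907, 0.906 and 0.895). Rorb was nearest to Dusp6, Zfp647 and Kdm3a (0.889, 0.880 and 0.865) and Reln to Nat10, Wdr76 and Sf3b3 (0.870, 0.848 and 0.838). No other layer factor was among them. These values describe 15 points that share their libraries.

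Levels of marker genes for cell types and regions also differed between embryos, and their part in these values was not tested. No correlation of their sums with the members was computed. The summed level of 6 genes of forebrain and cortical excitatory neurons, among them Emx1, Neurod2 and Slc17a7, was 1040 to 2410 CPM in euploid and 254 to 1680 CPM in Ts65Dn embryos, with 254 CPM in TS7, 637 CPM in TS5 and 810 CPM in TS2. The summed level of 6 thalamus genes was 256 to 614 CPM in euploid and 172 to 974 CPM in Ts65Dn embryos, and the 3 highest were TS7 at 974 CPM, TS5 at 941 CPM and TS2 at 632 CPM. Those 3 embryos also had the lowest Tbr1 of the 15. Among single genes, the thalamic gene Tcf7l2 was 58.8 to 302 CPM in euploid and 17.1 to 521 CPM in Ts65Dn embryos. Choroid plexus genes ran from 23.9 to 1390 CPM in euploid and from 645 to 1440 CPM in Ts65Dn embryos, again highest in TS7. The summed level of 6 GABAergic interneuron genes was 522 to 703 CPM in euploid and 371 to 704 CPM in Ts65Dn embryos, with the lowest in TS7. None of these marker genes was at 0 in any embryo. By the test, 0 of 6 excitatory, 0 of 6 interneuron, 0 of 6 thalamus and 0 of 5 choroid plexus genes were called. Estimates lay below 0 for 5 of 6 excitatory and for 5 of 6 interneuron genes (median -0.48 in each list), and above 0 for 6 of 6 thalamus genes (median 0.39) and 5 of 5 choroid plexus genes (median 0.50). The highest choroid plexus estimate was that of Clic6 at 1.18 (adjusted p = 0.131, edgeR). Clic6 lies at chr16:92498147-92541241 (GRCm38), within the extra segment, and is part of the choroid plexus sum, count and median. The other choroid plexus genes lay between 0.42 and 0.78.

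**Figure D3:**
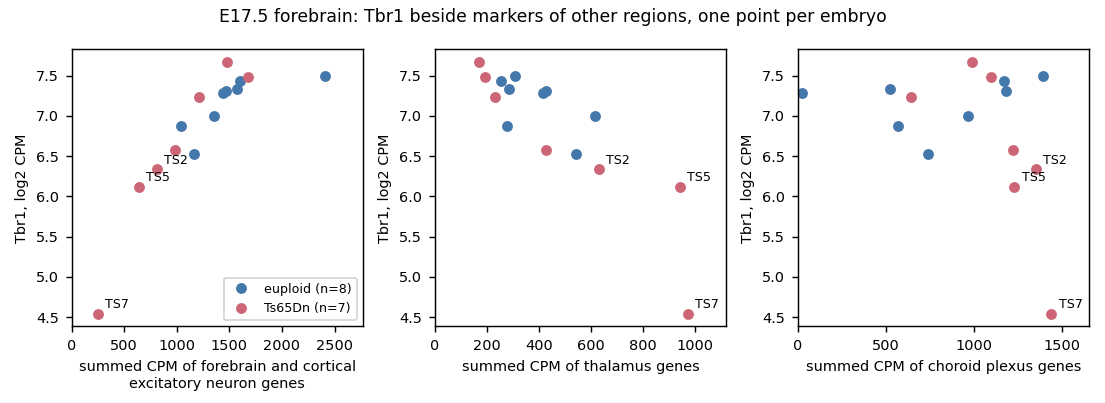
Tbr1 in log2 CPM against the summed CPM of 6 forebrain and cortical excitatory neuron genes, 6 thalamus genes and 5 choroid plexus genes, with 1 point per E17.5 embryo (blue euploid, red Ts65Dn). TS7, with the lowest Tbr1 at 4.54, has the lowest excitatory neuron sum (254) and the highest thalamus sum (974).

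Of the other genes of the same layers and families, Pcp4 alone was called. Among 10 further upper-layer genes, 0 were called and 9 lay below 0 (median -0.26). The lowest was Inhba at -0.66, encoding an activin subunit, and the highest Cartpt at 0.92 (adjusted p = 0.138), encoding a neuropeptide. Among 8 layer 5 genes 1 rose, the calmodulin-binding gene Pcp4 at 0.77 ± 0.16 (adjusted p = 0.0236). Pcp4 lies at chr16:96467606-96525793 (GRCm38), within the triplicated segment, and it rose in adult male Ts65Dn hippocampus too (0.57 ± 0.11, adjusted p = 0.0211), at 0.60 without the libraries against their labels. It was not called in male Ts65Dn;Brwd1+/- (0.41 ± 0.11, adjusted p = 0.136), female Ts65Dn (0.27 ± 0.16, adjusted p = 0.413) or female Ts65Dn;Brwd1+/- hippocampus (0.26 ± 0.16, adjusted p = 0.553) against euploid. Without those libraries the adjusted p of Pcp4 in these 3 comparisons was 7.64e-05 (at 0.56), 0.169 and 0.182 in edgeR. The lowest of that list was Bhlhe22 at -0.35. Of 11 layer 6 and subplate genes, 10 were tested and 0 called, between Ntsr1 at -0.45 and Nxph4 at 0.56, and Cplx3 was too low for the test. The 5 layer 4 genes, between Unc5d at -0.09 and Rora at 0.54, had 0 calls.

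No gene of the reelin pathway passed the test. Of 8 genes for its receptors and downstream proteins (the receptors Lrp8 and Vldlr, the adaptor Dab1, the kinase Fyn, and Crk, Crkl, Rapgef1 and Pafah1b1), 0 were called, between -0.19 for Dab1 and 0.03 for Pafah1b1, with a median of -0.07. The 6 Cajal-Retzius genes other than Reln had 0 calls, with Ebf3 highest at 1.18 ± 0.52 (adjusted p = 0.389) and Trp73 lowest at -0.36. Estimates lay above 0 for 4 of the 6 and below 0 for 2, Trp73 and Calb2 (-0.13). The summed level of the 6 genes was 528 CPM in TS7, the highest of all embryos, where Reln at 243 CPM was close to the group medians. The part of Cajal-Retzius cells in that sum was not tested. Of 11 paralogs of the layer factors, 0 were called and 7 lay below 0 (median -0.28), with Pou3f3 lowest at -0.54. Lists of cortical progenitors (Eomes lowest at -0.46, Nes highest at 0.00), GABAergic interneurons (Lhx6 at -0.60, Gad1 at 0.06), striatal neurons (Ppp1r1b at -0.60, Ebf1 at 0.31) and hippocampal subfields (Prox1 at -0.18, C1ql2 at 0.89) had 0 calls.

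The adult hippocampus served for comparison, and since stage, tissue and experiment differ together, levels were set side by side with no test. Foxp2 was 88.3 CPM on average in euploid forebrain and 2.16 CPM in male and 2.80 CPM in female euploid hippocampus, which in geometric means is 42.2-fold and 35.3-fold higher. Pou3f2 was 143 CPM against 15.9 CPM in each sex. Cux1 (117 CPM against 32.1 CPM in males and 35.4 CPM in females), Cux2 (100 CPM against 37.8 and 38.2 CPM), Tbr1 (146 CPM against 65.7 and 61.8 CPM) and Reln (236 CPM against 109 and 107 CPM) were also higher in every euploid embryo than in every euploid adult. Bcl11b (276 CPM against 220 and 223 CPM), Fezf2 (57.9 CPM against 40.3 and 36.2 CPM) and Rorb (21 CPM against 16.2 and 14.9 CPM) overlapped between the stages. In the adults, Bcl11b at 27.2 RPKM, Fezf2 at 13.2 RPKM and Tbr1 at 12 RPKM led in male euploid hippocampus, and Foxp2 at 0.132 RPKM was last, at 30 to 386 reads per library over the 6 adult groups.

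In the adult genotype comparisons, 0 of 9 layer factors passed in edgeR or in DESeq2. In males, 0.795% of all genes were called in Ts65Dn vs. euploid, 0% when Ts65Dn;Brwd1+/- was set against Ts65Dn, and 0.576% when it was set against euploid. In females the shares were 3.17%, 0% and 0.729%. At an unadjusted p of 0.05, 1, 2 and 1 members in males and 2, 0 and 1 members in females were counted in the same order, beside 8.91%, 7.48% and 10.1% of all genes tested in males and 15.4%, 3.52% and 11.2% in females. For the 2 comparisons with 0 genes called, 1261 genes in males and 604 in females reached an unadjusted p of 0.05, and DESeq2 called 1 and 14 genes. The comparisons within a sex share their groups, so that their estimates are not independent of each other.

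**Figure D4:**
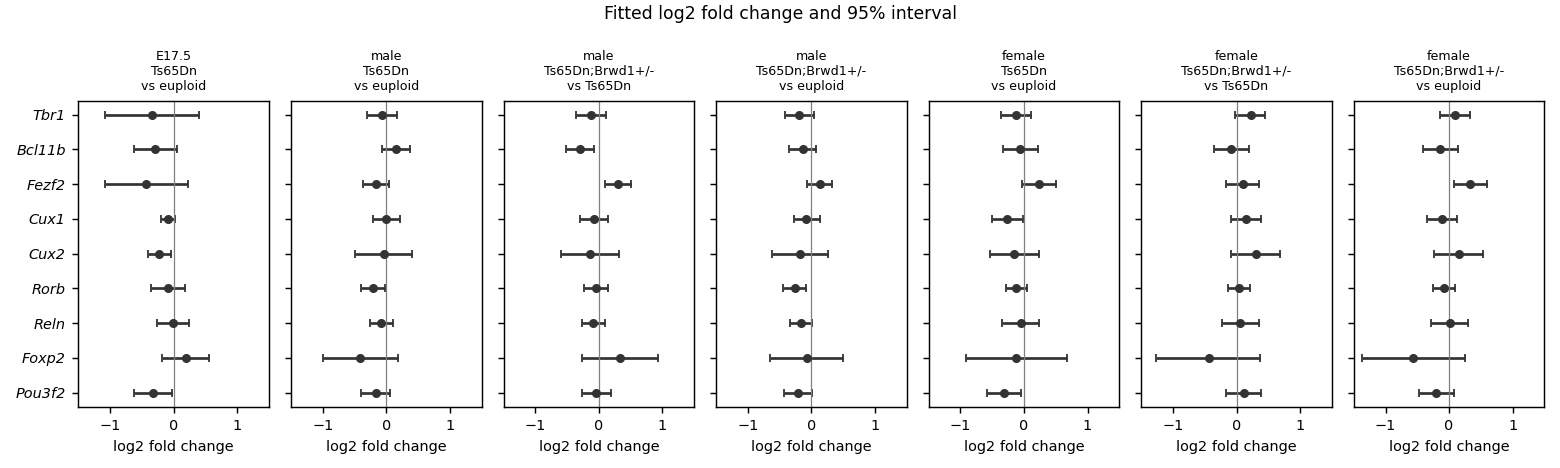
Fitted log2 fold change of each layer factor (points) with its 95% interval (bars) in the E17.5 comparison and the 6 adult comparisons, males in panels 2 to 4 and females in panels 5 to 7. Intervals are widest for Tbr1 and Fezf2 at E17.5 and for Foxp2 in adults.

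Rorb in adult males was called against euploid or not depending on a single library. It was 14.1, 16.1 and 18.4 CPM (lowest, median, highest) in male euploid, 11.4, 13.4 and 19.3 CPM in male Ts65Dn and 10.9, 13.4 and 15.6 CPM in male Ts65Dn;Brwd1+/- hippocampus. Of the 7 libraries labelled male Ts65Dn, 6 lay below every euploid library, between 11.4 and 13.8 CPM, and the other, M_TS_B145 at 19.3 CPM, lay above every euploid library. M_TS_B145 is the male library labelled Ts65Dn whose triplicated genes were at the euploid level. With it, the log2 fold change against euploid was -0.21 ± 0.09 (adjusted p = 0.512); without it, -0.30 (adjusted p = 0.0776, edgeR), and without M_TS_B88 as well and the other male libraries that went against their labels, -0.31 (adjusted p = 0.0907). For Ts65Dn;Brwd1+/- against euploid, Rorb was -0.26 ± 0.09 (adjusted p = 0.276), and -0.29 (adjusted p = 0.0793) without the male libraries against their labels. Leaving those libraries out raised the genes called in all from 134 to 259 in Ts65Dn and from 97 to 307 in Ts65Dn;Brwd1+/- against euploid. Between Ts65Dn;Brwd1+/- and Ts65Dn, Rorb was -0.05 ± 0.09 (95% interval -0.24 to 0.14), and 0.01 without those libraries. In females, Ts65Dn against euploid was -0.12 ± 0.08 (adjusted p = 0.528), and the difference between the sexes, 0.09 ± 0.12, did not pass (adjusted p = 0.844), nor did it without the libraries against their labels (0.19, adjusted p = 0.662).

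**Figure D5:**
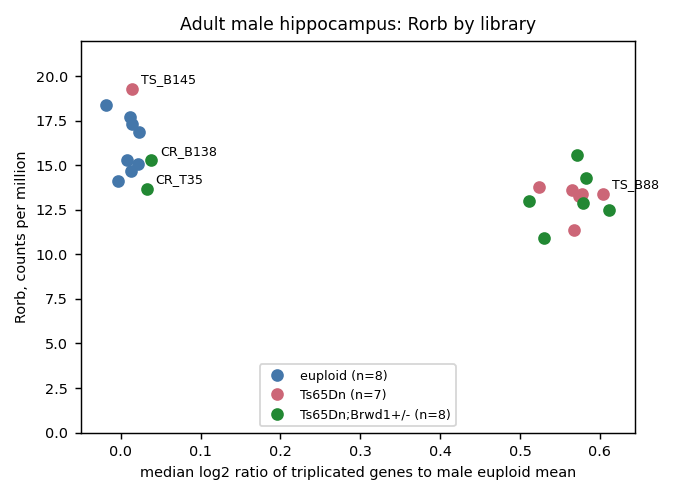
Rorb in CPM against the dosage of the extra segment (median over its genes, as log2 of the level over the male euploid mean), with 1 point per adult male hippocampus library (8 euploid, 7 Ts65Dn, 8 Ts65Dn;Brwd1+/-). Libraries at the euploid dosage lie at 13.7 CPM and above, including M_TS_B145 at 19.3 CPM, and those at the trisomic dosage between 10.9 and 15.6 CPM.

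Fezf2 and Bcl11b had estimates of opposite sign in adult males. In the embryos their deviations had r = 0.70 (permutation p = 0.00887, adjusted over the 36 pairs 0.0532). That r was 0.51 without TS7, 0.42 in the euploid embryos alone and 0.77 in the Ts65Dn embryos alone. Fezf2 was 23.6, 37.4 and 44.3 CPM in male Ts65Dn and 40.3, 42.6 and 52.6 CPM in male Ts65Dn;Brwd1+/- hippocampus, with all 8 of the latter above the Ts65Dn median (log2 fold change 0.30 ± 0.10, unadjusted p = 0.00671 in the edgeR fit, adjusted p = 0.626). Bcl11b was 188, 244 and 325 CPM in male Ts65Dn and 155, 208 and 221 CPM in male Ts65Dn;Brwd1+/-, with all 8 of the latter below the Ts65Dn median (-0.30 ± 0.11, adjusted p = 0.626). Without the libraries against their labels Fezf2 was 0.22 (adjusted p = 0.598) and Bcl11b -0.29 (adjusted p = 0.504). Without M_TS_B145 alone, the highest Ts65Dn library for Bcl11b at 325 CPM, they were 0.26 and -0.22 (adjusted p = 0.838 for each). With 3 RUVr-type factors in DESeq2 both were called, at 0.32 and -0.27 (adjusted p = 0.0147 and 0.000113), among 786 genes called in that setting. In females the same comparison gave 0.10 ± 0.13 for Fezf2 and -0.08 ± 0.13 for Bcl11b. The estimated difference between the sexes in the response of Fezf2 to trisomy was 0.40 ± 0.17 (female minus male, unadjusted p = 0.022 in the edgeR fit, adjusted p = 0.360). It did not pass, and was 0.31 (adjusted p = 0.645) without the libraries against their labels. For the 2 interactions of sex and genotype, 0% of 17427 genes and 0 of 9 members were called, with 1 and 0 members at an unadjusted p of 0.05. In all, 1935 and 650 genes reached that value, and DESeq2 called 85 and 1 genes and 0 members.

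In adult females, Fezf2, Pou3f2 and Cux1 reached an unadjusted p of 0.05 in 1 comparison each. Fezf2 was 25.7, 35.3 and 47.7 CPM in euploid and 36.8, 45.6 and 55.1 CPM in Ts65Dn;Brwd1+/- females, with 8 of 8 of the latter above the euploid median (0.33 ± 0.13, adjusted p = 0.339). It was 0.38 (adjusted p = 0.0954) without the euploid library F_WT_B125 and 0.27 (adjusted p = 0.541) without the libraries against their labels. Pou3f2 was 10.4, 15.8 and 21.2 CPM in euploid and 11.4, 12.4 and 15.9 CPM in Ts65Dn females, with 7 of 8 trisomic libraries below the euploid median (-0.31 ± 0.13, adjusted p = 0.248). Without the euploid library F_WT_B125 the adjusted p was 0.0760, at -0.37, and without F_WT_B85, the euploid library with the highest Pou3f2 and Cux1, it was 0.476, at -0.23. Cux1 was 29.7, 33.4 and 52.5 CPM in euploid and 24.6, 30.1 and 33.3 CPM in Ts65Dn females, with 8 of 8 below the euploid median (-0.26 ± 0.12, adjusted p = 0.275). Without F_WT_B85, at 52.5 CPM, the log2 fold change of Cux1 was -0.15 (adjusted p = 0.578). Foxp2, at 1 to 3 CPM on average in each adult group, had intervals too wide to exclude a change of 1 log2 unit in 2 of the 3 female comparisons, such as -1.26 to 0.37 for Ts65Dn;Brwd1+/- against Ts65Dn.

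The members' covariation was also taken in the adult hippocampus, and it was not tested against that of the embryos. In deviations from the 6 group means over 47 libraries, Tbr1 varied with Cux2 (r = 0.78, permutation p = 1e-05, the smallest that 100000 permutations can give, adjusted over 36 pairs 0.00012; rho = 0.74, permutation p = 1e-05, adjusted 0.00012) and Cux1 with Cux2 (r = 0.73 and rho = 0.69, each with permutation p = 1e-05). Without the 2 libraries farthest from the median of the first gene, r was 0.74 and 0.76. Within males r was 0.84 and 0.86 and within females 0.72 and 0.62, and over the 41 libraries that matched their labels 0.82 and 0.80. Among the other pairs, r was 0.62 for Reln and Pou3f2, 0.61 for Cux1 and Foxp2, 0.59 for Cux2 and Foxp2 and 0.58 for Cux2 and Reln. Tbr1 did not vary with Bcl11b (r = -0.04, permutation p = 0.814; rho = -0.02, permutation p = 0.904) or with Fezf2 (r = 0.07, permutation p = 0.680; rho = 0.05, permutation p = 0.739), and Bcl11b and Fezf2 went in opposite directions (r = -0.49, permutation p = 0.00276, adjusted 0.0124; rho = -0.51, permutation p = 0.00102, adjusted 0.00444). Without the 2 libraries farthest from the median of Bcl11b, F_CR_B176 and F_WT_B125, r was -0.41. Bcl11b also went against Cux1 (r = -0.42, permutation p adjusted 0.0329, and rho = -0.56, adjusted 0.00102). The same held for Cux2 (r = -0.43, permutation p adjusted 0.0194) and Foxp2 (r = -0.36, adjusted 0.0481).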

How the data were processed

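Libraries had been made from trizol-extracted polyA RNA with the Illumina TruSeq RNA kit v2, which does not mark strand, and reads of 2 flow cells were joined. Per the labels and the methods of the study, the authors aligned reads with HISAT2 (2.1.0 in the submitters' processing notes) to mm10 (mm9 is also listed) and counted them per gene with featureCounts 2.0.1. The deposited values are raw counts per Entrez gene, 27179 genes in 15 E17.5 and 47 adult libraries. Of these, 25275 matched a RefSeq symbol. The unmatched genes held 0.805% (E17.5) and 0.3% (adult) of counts and stayed in the fits. No pair of libraries in a group was a duplicate by a chi-square test of counts.

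Counts were normalised by TMM, filtered with filterByExpr (minimum count 10) and tested with the robust quasi-likelihood test of edgeR 4.0.16 in R 4.3.3. The E17.5 comparison was fitted on its 2 groups, adult comparisons on the 3 groups of a sex, and interactions on all 6 adult groups. A gene was called at a Benjamini-Hochberg adjusted p under 0.1 over all genes tested. SEs and 95% intervals are those of the fit. Levels are TMM-scaled CPM, with a prior count of 0.5 on the log2 scale. RPKM used the union of GENCODE vM21 exons. Exons of other genes on the opposite strand cover 1.97% of the exon bases of Cux1 and 1.04% of Reln. Correlations were taken on deviations of log2 CPM from group means, and permutation tests (two-sided, 100000 draws) shuffled libraries within groups. Dosage was the median log2 ratio of genes on chromosome 16 from Mrpl39 on and on chromosome 17 up to Pde10a, and libraries labelled trisomic under 0.25 were treated as against their label. Alternatives were DESeq2 1.42.0, upper-quartile scaling, other count filters, 1 to 3 RUVr-type factors, a threshold of 0.05, and leaving out libraries. The scripts' tests were checked on simulated counts.

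The 9 members and the other gene lists were chosen with earlier results of these data known. All members were named in the text, and from each other list the genes called and those with the highest and lowest log2 fold change at E17.5; some single genes that this rule names are not reported here. The 3 genes most like each member were named by correlation.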

Additional observations from a re-analysis of the deposited data

Results flagged for a closer look

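In 72 sets of levels (9 members in 8 groups), 4 had a library farther from the others than Dixon's test allows at 95%, where chance alone gives about 1 set in 20. Embryo TS7 had Fezf2 at 3.42 log2 CPM, with the next Ts65Dn embryo at 4.99 and the highest at 5.96. The euploid embryo EU6 had Bcl11b at 7.64 log2 CPM, with the next at 8.01. M_TS_B145, labelled male Ts65Dn but with its triplicated genes at the euploid level, had Rorb at 4.27 log2 CPM, with the next male Ts65Dn library at 3.78. The male euploid library M_WT_B84 had Pou3f2 at 4.48 log2 CPM, with the next at 4.03; it also had the highest Tbr1 of the adult libraries, at 87.9 CPM. The part of region of tissue, of sample identity or of any other factor in these values was not tested. In edgeR, no member differed between the sexes in its response to genotype, at 1 and 0 members with an unadjusted p under 0.05 in the 2 interactions and 0 members in DESeq2.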

How the results depend on the processing

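Over 201 alternatives in which members were counted, 179 gave 0 members called and 22 gave 1 or more, and no called value changed sign. DESeq2, upper-quartile scaling, other count filters and the stricter threshold gave 0 members in each comparison for which they were run. With 2 RUVr-type factors in edgeR the count was 2 at E17.5, 1 in female Ts65Dn and 1 in female Ts65Dn;Brwd1+/- against euploid, and 2 in male Ts65Dn;Brwd1+/- against Ts65Dn, and 1 factor gave 1 in female Ts65Dn. With 3 factors in edgeR the counts were 3, 2, 2 and 2 in that order, and 1 in male Ts65Dn;Brwd1+/- against euploid. In the same order, 16395, 17146, 17146 and 16851 genes were tested in edgeR. Of these, 2 factors called 2474, 3059, 2152 and 283 in all, and 3 factors called 3339, 3744, 2937 and 485. In male Ts65Dn;Brwd1+/- against euploid 3 factors called 725 genes, and in female Ts65Dn 1 factor called 1820. With 3 factors in DESeq2 the member counts were 5, 3, 2 and 2, then 3 in male Ts65Dn;Brwd1+/- and 1 in male Ts65Dn against euploid. These factors are estimated from residuals of the same fit, and in DESeq2 3 of them called 3882 genes at E17.5, 4169 and 3416 in the female and 1025 and 1228 in the male comparisons of Ts65Dn and Ts65Dn;Brwd1+/- against euploid, and 786 in male Ts65Dn;Brwd1+/- against Ts65Dn; the cause of the added member calls was not tested. Leaving out the libraries against their labels gave 1 (Rorb) in male Ts65Dn and 1 (Rorb) in male Ts65Dn;Brwd1+/- against euploid. The genes called in all rose from 134 to 259 and from 97 to 307 in these 2 comparisons. Leaving out 1 library at a time, the counts ranged from 0 to 1 at E17.5 (1 without EU3), in female Ts65Dn and in female Ts65Dn;Brwd1+/- against euploid (1 without F_WT_B125, Pou3f2 and Fezf2), and in male Ts65Dn (1 without M_TS_B145). Genes called then ranged from 122 to 456 at E17.5 and from 285 to 1603 in female Ts65Dn. They ranged from 82 to 1376 in female Ts65Dn;Brwd1+/- and from 83 to 224 in male Ts65Dn against euploid.

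With embryo numbers as a replicate block, 0 members and 121 genes were called at E17.5. Same-numbered embryos deviated together by correlations of -0.13 to 0.23, so the numbers do not pair the samples. Pcp4 kept its log2 fold change within each title number, at 0.78, with adjusted p of 0.347 and 0.315 in edgeR. DESeq2 called 603 genes at E17.5. Depth limits Foxp2 in adults, where some libraries held as few as 30 reads.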

Other observations

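Of the other gene lists, 4 genes besides Pcp4 were called in adult comparisons, all in females. In Ts65Dn against euploid hippocampus, Wfs1, a CA1 marker, had a log2 fold change of -0.66 ± 0.17 (adjusted p = 0.0441, edgeR), and -0.68 (adjusted p = 0.0485) without the libraries against their labels. Unc5d, a netrin receptor of layer 4 in cortex, was at 0.48 ± 0.14 (adjusted p = 0.0781), and at 0.47 (adjusted p = 0.118) without those libraries. C1ql2 of dentate mossy fibres was at 0.60 ± 0.18 (adjusted p = 0.0957), and at 0.57 (adjusted p = 0.181) without them. In Ts65Dn;Brwd1+/- against euploid females, Eomes, a paralog of Tbr1 and a marker of intermediate progenitors, was at -2.98 ± 0.70 (adjusted p = 0.0555), and at -1.52 (adjusted p = 0.279) without F_WT_B85, the euploid library with male levels of the sex-linked genes. Eomes was 0.408, 1.52 and 25 CPM (lowest, median, highest) in these euploid females and 0.386, 0.539 and 0.895 CPM in Ts65Dn;Brwd1+/- females, so that the groups overlapped at the low end.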
